A study of Mus musculus with 20 samples.

Results

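The 101 array probes described here were raised in tamoxifen-treated Zscan4-ERT2 embryonic stem (ES) cells on day 2. On day 1 their group means differed little between treated and untreated cells. They were 101 of the 42006 probes of the array. The members were chosen by their scanner signals: the sample signal had to be well above background on all 4 arrays of treated cells on days 1 and 2, the log2 ratio on day 1 had to differ between treated and untreated cells by no more than 0.2 in either direction, and the log2 ratio on day 2 had to be at least 0.6 higher in treated cells. Because measured values chose the members, their day 1 and day 2 differences between treated and untreated cells are given as a description only.

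The cells were 1 clone (#18) of V6.5 mouse ES cells, a line from an F1 cross of C57BL/6 and 129/Sv. All groups, the untreated ones included, carried pCAG-Zscan4-ERT2, a transgene under the ubiquitous CAG promoter, and a neomycin resistance gene under the PGK promoter. No line without the transgene was among the samples, so a response to tamoxifen itself cannot be told apart from a response to the fusion protein. There were 10 groups of 2 arrays, all monolayers on gelatin in ES medium: cells at the start (Day0), untreated cells on days 1 and 2 (Tmx- and Tmx--), cells kept in 200 nM tamoxifen to day 1, 2, 3 or 4 (Tmx+, Tmx++, Tmx+++, Tmx++++), and cells given tamoxifen on day 1 only and collected on day 2, 3 or 4 (Tmx+-, Tmx+--, Tmx+---). No untreated group of day 3 or day 4 was analysed here. Nothing in the labels tells if both arrays of a group stand for different cultures, and p-values therefore rest on a spread between arrays that could be technical only.

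Zscan4 genes encode DNA-binding proteins with a SCAN domain and zinc fingers. In mouse they are known from the cleaving embryo around the stage at which its own genome is first transcribed. They are also known from a small and changing share of ES cells, where they are tied to telomere lengthening and genome stability. ERT2 is an altered ligand-binding domain of the oestrogen receptor: a protein fused to it is held inactive until a tamoxifen compound binds, so the drug switches the fusion on without new transcription.

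Each array compared sample RNA, labelled with Cy3, with a common reference labelled with Cy5, which was a pool of RNA from 11 mouse cell lines mixed with 129ES cell RNA. Levels below are log2 ratios of sample over reference after normexp background correction and loess normalization, unless the processed signals of the scanner software are named. Between 26199 and 30069 probes per array were well above background, and the number of arrays limits the precision. Each group lay on 1 slide of 4 arrays. The 2 schedules of day 3 shared a slide, as did those of day 4 and the Tmx++ and Tmx+- cells of day 2. Treated and untreated cells lay on different slides on day 1 and on day 2, so the differences that chose the members crossed slides, as did every comparison with day 0 except that of untreated cells on day 1. Slide and group cannot be told apart in any of these. Array files name probes by identifiers of the design with no gene name, so ES cell markers and pathway lists could not be looked up and the members are named by probe.

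The probes are 60-base oligonucleotides, and the sequences of those that carry the main findings are printed first. Shown are 4 members with a large day 4 difference between the schedules and the 1 member that was called lower, with AATAAA in capitals.
Z00070171-1: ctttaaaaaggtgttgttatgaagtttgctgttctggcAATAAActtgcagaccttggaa
Z00074908-1: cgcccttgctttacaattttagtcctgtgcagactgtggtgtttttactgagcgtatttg
Z00053915-1: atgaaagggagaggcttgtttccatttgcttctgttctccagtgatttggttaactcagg
Z00075201-1: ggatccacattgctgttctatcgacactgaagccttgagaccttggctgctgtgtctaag
Z00076777-1: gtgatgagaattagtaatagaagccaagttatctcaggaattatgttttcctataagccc

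AATAAA is the usual polyadenylation signal near the 3′ end of messenger RNAs. It occurred on the printed strand of 15 of the 101 members (14.9%) and of 2207 of the 29414 probes tested (7.50%), and its reverse complement TTTATT occurred in 5 members (4.95%) and 901 tested probes (3.06%). The median GC content was 45.0% in both sets. These are descriptions of the probe letters.

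Members that overlap another probe are repeat measurements of the same RNA stretch. Z00075004-1 and Z00050957-1, both members, share 59 bases at a shift of 1 base and are not independent. Z00075510-1 shares 41 bases with Z00031590-1, and Z00059761-1 shares 53 bases with Z00068689-1, neither of which is a member. Capitals mark the shared run.
Z00075004-1: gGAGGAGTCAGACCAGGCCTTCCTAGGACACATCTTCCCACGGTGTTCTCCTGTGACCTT
Z00050957-1: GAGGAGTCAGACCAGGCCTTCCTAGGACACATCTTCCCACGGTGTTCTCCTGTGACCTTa
Z00075510-1: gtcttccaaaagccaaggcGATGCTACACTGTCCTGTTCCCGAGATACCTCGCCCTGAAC
Z00031590-1: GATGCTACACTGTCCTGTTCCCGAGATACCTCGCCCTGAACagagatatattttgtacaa
Z00059761-1: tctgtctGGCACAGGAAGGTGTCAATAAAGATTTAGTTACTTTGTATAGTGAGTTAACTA
Z00068689-1: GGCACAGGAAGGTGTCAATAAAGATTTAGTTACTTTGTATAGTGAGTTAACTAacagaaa

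Only windows around gene starts were at hand for locating probes, 250 bases before to 50 bases after the start of 32851 RefSeq entries (build GRCm38.p6), and 3 members had a match of their letters there on the strand of the gene. All 60 bases of Z00064641-1 lay at chr8:57511788-57511847 on the plus strand, from 55 bases before to 5 bases after the start of Hmgb2, which encodes a chromatin protein of the high mobility group. The first 40 bases of Z00076312-1 lay at chrX:73192189-73192228 on the plus strand, the 11th to the 50th base after the start of Xlr3b, a member of a family of near-identical X-linked copies. The first 28 bases of Z00064570-1 matched the 23rd to the 50th base after the start of Zscan4d, at chr7:11166099-11166126 on the minus strand, with the substitutions C20G and G27C (the window's base, the position counted from 1 at the probe's 5′ end, then the probe's base). A match places letters only and assigns no gene. No other window matched Z00064570-1 within 2 mismatches, but the Zscan4 copies were not compared over this stretch, so no copy is chosen here. The promoter probe and the Zscan4d run are shown because their values stand apart below, the run with its differing bases in capitals.
Z00064641-1: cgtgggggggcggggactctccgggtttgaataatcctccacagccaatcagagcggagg
Z00064570-1 bases 1 to 28: acccttgaagttcactggaGaaagagCt

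On the processed signals that the rule used, the day 2 rise had a median of 0.70 and ran from 0.60 to 1.22. The last members inside the limit were Z00006077-1 and Z00038562-1 at 0.6012 and 0.6008, and the first probes outside were Z00033008-1 at 0.5987 and Z00004214-1 at 0.5965. The day 1 difference had a median of 0.10, was above 0 in 77 members and below 0 in 24, and exceeded 0.1 in 48. Of 1015 probes that met the signal rule and reached the day 2 rise, 908 were above the day 1 limit, 6 were below it, and the 101 members lay between. The members are therefore the part of a larger set whose day 1 difference was smallest, and most of them leaned upward on day 1. The small day 1 difference is one of group means, and single arrays could disagree. Z00070171-1 had processed log2 ratios of -1.18 and -0.54 in untreated cells on day 1, against -0.71 and -0.81 in treated cells. Without the first Day1 Tmx- array the rule kept 71 of the 101 members, and without the second it kept 53.

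Most members were dimmer than the median probe tested. Their median processed sample signal on day 2 in tamoxifen was 221, against 600 for all probes tested, and 72 of the 101 were under the latter value. The lower quartile was 99.8 in both sets, and the upper quartile was 849 in members against 3676 in all probes tested. Members thus lacked bright probes rather than holding more of the dimmest ones. On the normexp and loess scale, which damps differences of dim probes, all 101 were higher in treated cells on day 2. Their median was 0.44, against 0.02 for all tested probes, with a range of 0.11 to 0.89, but 23 reached 0.6. The same arrays chose the members, so this direction, also in the sample channel, follows largely from the choice. The sample channel alone was higher in all 101 (median 0.36), while the reference channel, which holds the same RNA on every array, moved by a median of -0.02. The reference change ran from -0.18 to 0.16, and in 2 members its fall was larger than the sample rise.

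In 98 members, both Tmx++ arrays of day 2 were above both Tmx-- arrays. The rule chose the members on these same arrays, so the choice largely fixes this count, which is a description only. The share among all tested probes was not computed. On the processed signals, leaving out 1 of the 4 day 2 arrays took the rise below 50% of its value in 4 members. Z00064641-1, the probe over the Hmgb2 start, read 0.42 and 1.95 on the Tmx++ arrays, against 0.49 and 0.44 in untreated cells, and lay between 0.12 and 0.67 on the other 16 arrays. The second Tmx++ array alone stands out. Z00024451-1 read -3.43 and -4.04 on the Tmx++ arrays against -4.34 and -4.23 in untreated cells, so the first array carried most of its difference. In the other 2 an untreated array did so. Z00029361-1 had processed log2 ratios of 0.31 and -1.39 on the Tmx-- arrays against 0.13 and 0.29 on the Tmx++ arrays, and its rise turned to -0.10 without the low untreated array. Z00036330-1, which was not well above background in untreated cells on day 2, went from 0.86 to 0.32 without the first Tmx-- array.

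**Figure D1:**
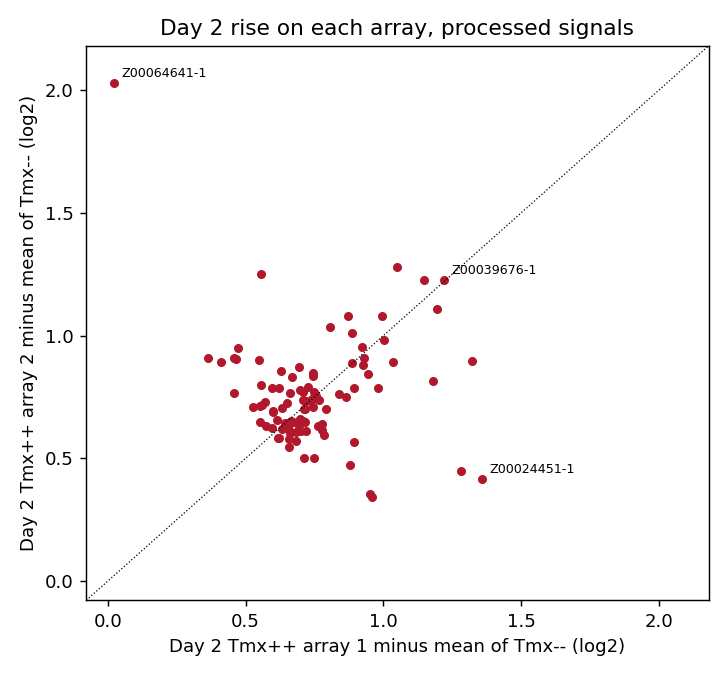
Day 2 rise of the 101 members on each of the 2 Tmx++ arrays, as log2 ratios of processed signals minus the mean of the 2 Tmx-- arrays; each point is a probe and the dotted line marks equal values. Z00064641-1 lies at 0.02 on array 1 and 2.03 on array 2, and Z00024451-1 at 1.36 and 0.42.

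The member with the largest rise under the rule was Z00039676-1. It read -1.03 and -0.95 on day 0, -1.11 and -1.04 in untreated and -1.13 and -0.95 in treated cells on day 1, and -1.04 and -0.96 in untreated cells on day 2. In treated cells on day 2 it read -0.41 and -0.45. Its level was flat in 4 groups and higher in the fifth, with no overlap. The rule used the day 1 and day 2 arrays. The choice of members therefore largely fixes the likeness on day 1 and the gap on day 2.

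Most of the other members with the largest rises under the rule were above day 0 on day 4 under continued tamoxifen. They were Z00024941-1 by 1.53, Z00064188-1 by 1.49, Z00017558-1 by 1.00, Z00074292-1 by 1.13, Z00062478-1 by 0.43, Z00034303-1 by 1.52 and Z00019741-1 by 2.07. Their limma adjusted p-values were 3.8e-05 or less. Z00077570-1 differed from day 0 by -0.01 (adjusted p = 0.94). Between the schedules on day 4, Z00024941-1 (0.39), Z00017558-1 (0.39), Z00034303-1 (0.40), Z00074292-1 (0.46) and Z00062478-1 (0.32) were called higher by limma. Z00064188-1 (0.13, adjusted p = 0.20), Z00077570-1 (0.11, adjusted p = 0.42) and Z00019741-1 (-0.02, adjusted p = 0.92) were not. The call of Z00074292-1 was lost without the first Tmx++++ array (adjusted p = 0.10) or the second Tmx+--- array (adjusted p = 0.071), and that of Z00062478-1 without the first Tmx+--- array (adjusted p = 0.064). The member with the lowest day 4 level relative to day 0 was Z00012687-1, at -0.26 (adjusted p = 0.00067 by limma, and 0.10 with median centring).

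The day 2 difference was made up unequally of a rise in treated cells and a fall in untreated cells. Against day 0, treated cells on day 2 were higher in 96 of the 101 members (median 0.32), and untreated cells were lower in 71 (median -0.07). The medians of all tested probes were 0.01 and -0.005. The rule used both day 2 groups, so the choice of members fixes part of both directions. In 19 members the fall of untreated cells made up over 50% of the difference. The largest shares were those of Z00025333-1 (178%) and Z00034303-1 (177%). Z00034303-1 read -3.44 and -3.29 on day 0, -4.53 and -4.62 in untreated cells on day 2 and -3.92 and -3.86 in treated cells. Treated cells were therefore below day 0 too, but less so.

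Members differed widely in their course before day 2. On day 1, 57 members were within 0.25 of day 0 in both treated and untreated cells. In 7 members both day 1 groups were more than 0.5 below day 0. Z00070334-1 read 0.57 and 0.35 on day 0, -0.90 and -0.71 in untreated and -0.80 and -0.77 in treated cells on day 1, and 0.31 and 0.55 in untreated and 1.02 and 0.92 in treated cells on day 2. Its untreated level fell and came back by day 2, and its treated level went above the start. In 5 members both day 1 groups were more than 0.5 above day 0. Z00038562-1 read -1.33 and -1.39 on day 0, -0.38 and -0.26 in untreated and -0.15 and -0.17 in treated cells on day 1, and then -1.12 and -1.36 in untreated and -0.70 and -0.60 in treated cells on day 2. For this member the day 2 difference was a smaller return toward the starting level in treated cells.

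**Figure D2:**
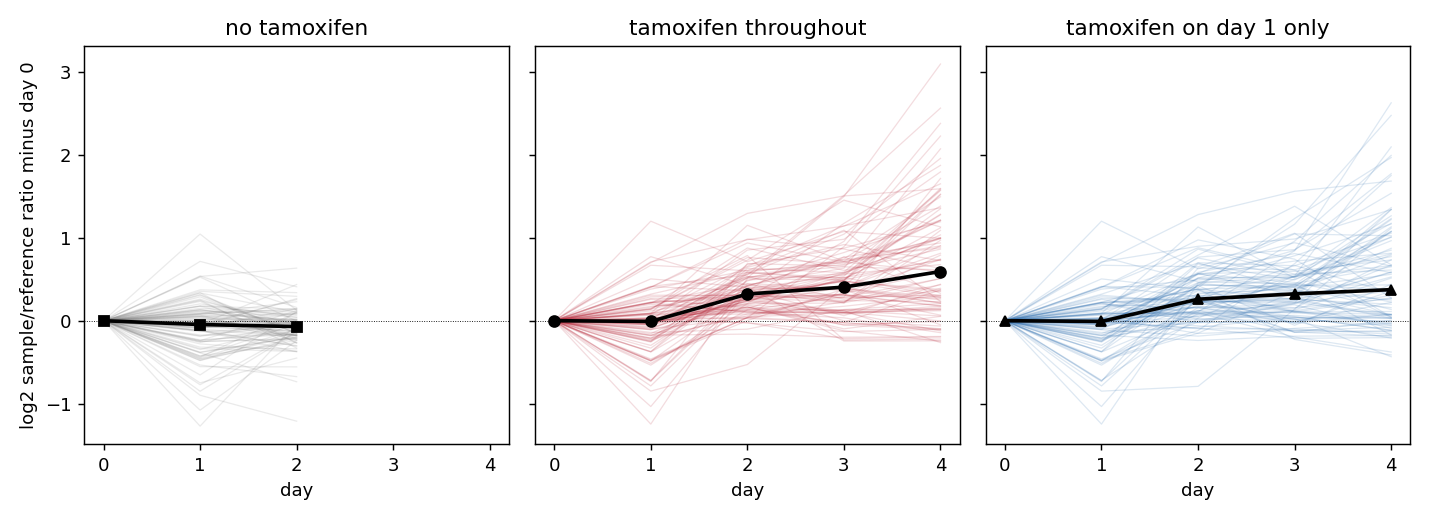
Levels of the 101 members minus their day 0 mean (log2 ratio, y axis) by day (x axis) in untreated cells, in cells kept in tamoxifen and in cells given tamoxifen on day 1 only; thin lines are probes and the thick line is their median. The median stays near 0 on day 1, and on day 4 it is 0.59 under continued tamoxifen and 0.37 after withdrawal.

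Cells given tamoxifen on day 1 only were also collected on day 2. Their arrays were not used by the rule, but the untreated arrays they are set against were, and they shared a slide with the Tmx++ arrays that chose the members, so the choice of members fixes part of these differences. Tmx+- cells were above untreated cells of day 2 in 98 members, with a median of 0.39, where 52.6% of all tested probes were above 0 with a median of 0.01. The median of Tmx++ cells was 0.44 against the same untreated arrays. For Z00039676-1 the Tmx+- arrays read -0.44 and -0.52, next to -0.41 and -0.45 with continued tamoxifen. In 9 members Tmx+- cells had under 50% of the rise, among them Z00064641-1 (0.51 and 0.25) and Z00024451-1 (-4.20 and -4.19).

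Against day 0, which the rule did not use, 62 members were higher and 2 were lower in Tmx+- cells by limma with Benjamini-Hochberg adjustment over all 29414 probes tested (adjusted p under 0.05). Of all tested probes 16.1% were called higher and 15.8% lower in the same comparison. The median of the members was 0.26, against 0.01 for all probes. With extreme local backgrounds on 1 array left as given, the number called fell from 64 to 36. The lower members were Z00034303-1, described above, and Z00025333-1. Since the treated day 2 arrays on the same slide chose the members, a slide effect on them would be shared, and its part was not tested.

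On days 3 and 4 no array had been used by the rule. Under continued tamoxifen, 72 members were higher and 3 lower than on day 0 on day 3, while 23.6% of all tested probes were higher and 20.6% lower. On day 4, 75 members were higher and 5 lower, against 33.2% and 25.5% of all tested probes. The median of the members was 0.41 on day 3 and 0.59 on day 4, and 31 members were at least 1 higher on the log2 scale on day 4, as were 3.56% of all tested probes. After withdrawal, 62 members were higher and 4 lower on day 3, with 20.5% and 19.2% of all tested probes, and 63 were higher and 8 lower on day 4, with 32.4% and 24.6%. With no untreated cells of these days, time in culture and tamoxifen cannot be told apart in these values.

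The largest day 4 levels over day 0 were those of Z00070171-1, Z00074908-1 and Z00076777-1. Z00070171-1 read -0.43 and -0.62 on day 0, -0.01 on both arrays of continued tamoxifen on day 2, 0.96 and 0.99 on day 3 and 2.57 and 2.58 on day 4. That was 8.54-fold above day 0 (log2 3.09, SE 0.12, adjusted p = 8.6e-13 by limma). After withdrawal the same probe read 0.71 and 0.57 on day 3 and 1.90 and 2.01 on day 4. It climbed under both schedules and stood lower without the drug.

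Other members had their highest group mean on day 2. Z00058951-1 read 0.41 and 0.38 on day 0, 0.84 and 0.77 in continued and 0.77 and 0.78 in withdrawn cells on day 2, and 0.06 and 0.25 in continued and 0.01 and -0.05 in withdrawn cells on day 4. Its day 4 levels were below day 0 by limma under continued tamoxifen (log2 -0.24, SE 0.06, adjusted p = 0.0034) and after withdrawal (log2 -0.41, adjusted p = 2.7e-05). Z00064570-1, the probe with the partial Zscan4d match, read -0.15 and -0.10 on day 0, 0.15 and -0.07 in continued cells on day 2 and -0.42 and -0.33 on day 4. Its continued day 2 arrays were above both day 0 arrays, the lower of them by little, and its day 4 level was lower (log2 -0.25, SE 0.08, adjusted p = 0.0099 by limma). Without the first Tmx++++ array, the adjusted p was 0.087 for Z00058951-1 and 0.082 for Z00064570-1, and without the second Day0 array it was 0.063 for Z00064570-1. With median centring in place of loess, neither lower call under continued tamoxifen was kept: the adjusted p was 0.11 for Z00058951-1 and 0.21 for Z00064570-1.

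The comparison that bears most directly on the drug is continued against withdrawn tamoxifen on the same day and slide. On day 4, 29 members were higher and 1 was lower in cells that still had tamoxifen (limma, adjusted p under 0.05), while 5.73% of all tested probes were called higher and 6.53% lower. Among the members 83 had a positive difference. Their median was 0.15, against 0.01 for all tested probes. The differences were modest: the 29 called members had a median of 0.34 and a lowest value of 0.20, and both Tmx++++ arrays were above both Tmx+--- arrays in 70 of the 101 members and in 28.4% of all tested probes. The number called fell from 30 to 17 without the first Tmx++++ array, to 19 without the second and to 14 without the first Tmx+--- array. It fell to 9 when 6 extreme local backgrounds per channel on the first Day1 Tmx- array were left as given.

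**Figure D3:**
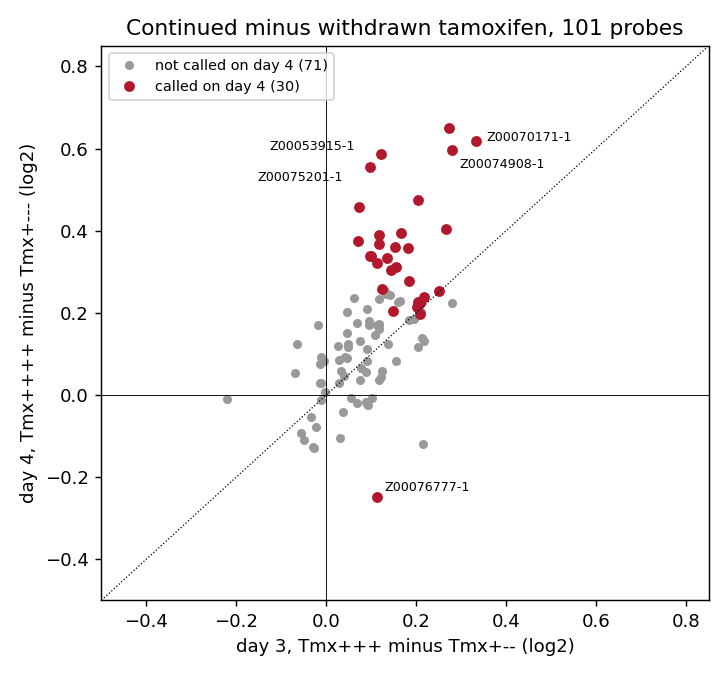
Continued minus withdrawn tamoxifen on day 3 (x axis) and day 4 (y axis) for the 101 members, in log2 ratio; red points are the 30 members called on day 4 by limma and the dotted line marks equal differences. Most points lie above 0 on both axes, and Z00076777-1 is the red point below 0.

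Z00074908-1 read -0.01 and 0.01 with continued tamoxifen and -0.63 and -0.56 after withdrawal on day 4, a 1.51-fold difference (log2 0.60, SE 0.06, adjusted p = 3.5e-06 by limma). Z00070171-1 differed by 0.62 (SE 0.12, adjusted p = 0.0024 by limma) and Z00075201-1 by 0.56.

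The exception was Z00076777-1. On day 4 it read 1.02 and 1.17 with continued tamoxifen and 1.29 and 1.39 after withdrawal (log2 -0.25, SE 0.07, adjusted p = 0.033 by limma). Both schedules were far above the day 0 values of -1.33 and -1.24. The call was lost on processed signals (adjusted p = 0.23), with median centring (adjusted p = 0.055), without the first Tmx++++ array (adjusted p = 0.30) and without either Tmx+--- array (adjusted p = 0.055 and 0.22).

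Overlapping probes gave like values on day 4 in some pairs and differed on day 2. Z00075510-1 read 1.59 and 1.51 with continued and 1.24 and 1.18 with withdrawn tamoxifen on day 4, and Z00031590-1, with which it shares 41 bases, read 1.53 and 1.49 against 1.13 and 1.19. The member pair Z00075004-1 and Z00050957-1 differed between the schedules by 0.20 and 0.31 on day 4 and was called at both probes, so these 2 calls rest on 1 RNA stretch. The day 2 difference between treated and untreated cells was 0.28 at Z00075510-1 and 0.15 at Z00031590-1, and 0.51 at Z00059761-1 and 0.35 at Z00068689-1. Z00009280-1 shares 34 bases, with 1 mismatch, with Z00046349-1. Their day 2 differences were 0.52 and 0.64, and their day 1 differences were 0.13 and 0.23.

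On day 3 the difference between the schedules was smaller. Of the members 84 had a positive difference and their median was 0.10, against 0.01 for all tested probes, but 1 member was called higher and 0 were called lower by limma; 0.153% of all tested probes were called higher and 0.367% lower. At an unadjusted limma p under 0.05, 24 members were higher and 0 lower, and 9.31% of all tested probes passed in either direction. The member called was Z00074908-1, which read -1.07 and -1.04 with continued and -1.34 and -1.32 with withdrawn tamoxifen (log2 0.28, SE 0.06, adjusted p = 0.048). The call was not kept without the first Tmx+++ array or without either Tmx+-- array.

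Whether the schedule difference grew from day 3 to day 4 was tested directly as the difference of both within-slide differences. It was larger on day 4 for 2 members and smaller for 0 by limma, and 0.0918% of all tested probes were called larger and 0.69% smaller. The members called were Z00075201-1 (0.46, SE 0.09, adjusted p = 0.025) and Z00053915-1 (0.47, SE 0.10, adjusted p = 0.041). At an unadjusted limma p under 0.05, 13 members were larger and 2 smaller, and 8.47% of all tested probes passed in either direction. The number called fell to 1 without the second Tmx+++ array and to 0 without any other single array of days 3 and 4 except the second Tmx++++ array. The levels of Z00075201-1 and Z00053915-1 ran side by side. Their printed sequences share no run of 25 bases, but whether both lie on 1 RNA is not known. The 2 calls may therefore not be independent. Z00075201-1 had a day 0 mean of -1.02 ± 0.02 (SD, n = 2), read -0.05 and -0.11 in continued cells on day 2, and read -0.34 and -0.51 in continued and -0.98 on both arrays in withdrawn cells on day 4. Z00053915-1 read -1.05 and -0.98 on day 0, then -0.03 on both arrays, then -0.28 and -0.49 against -0.98 and -0.95. Both had returned to their day 0 level after withdrawal and had not with continued tamoxifen. Untreated cells were above day 0 too. Their means on days 1 and 2 were -0.66 and -0.72 for Z00075201-1 and -0.64 and -0.67 for Z00053915-1. Part of the day 2 level was therefore reached without tamoxifen.

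**Figure D4:**
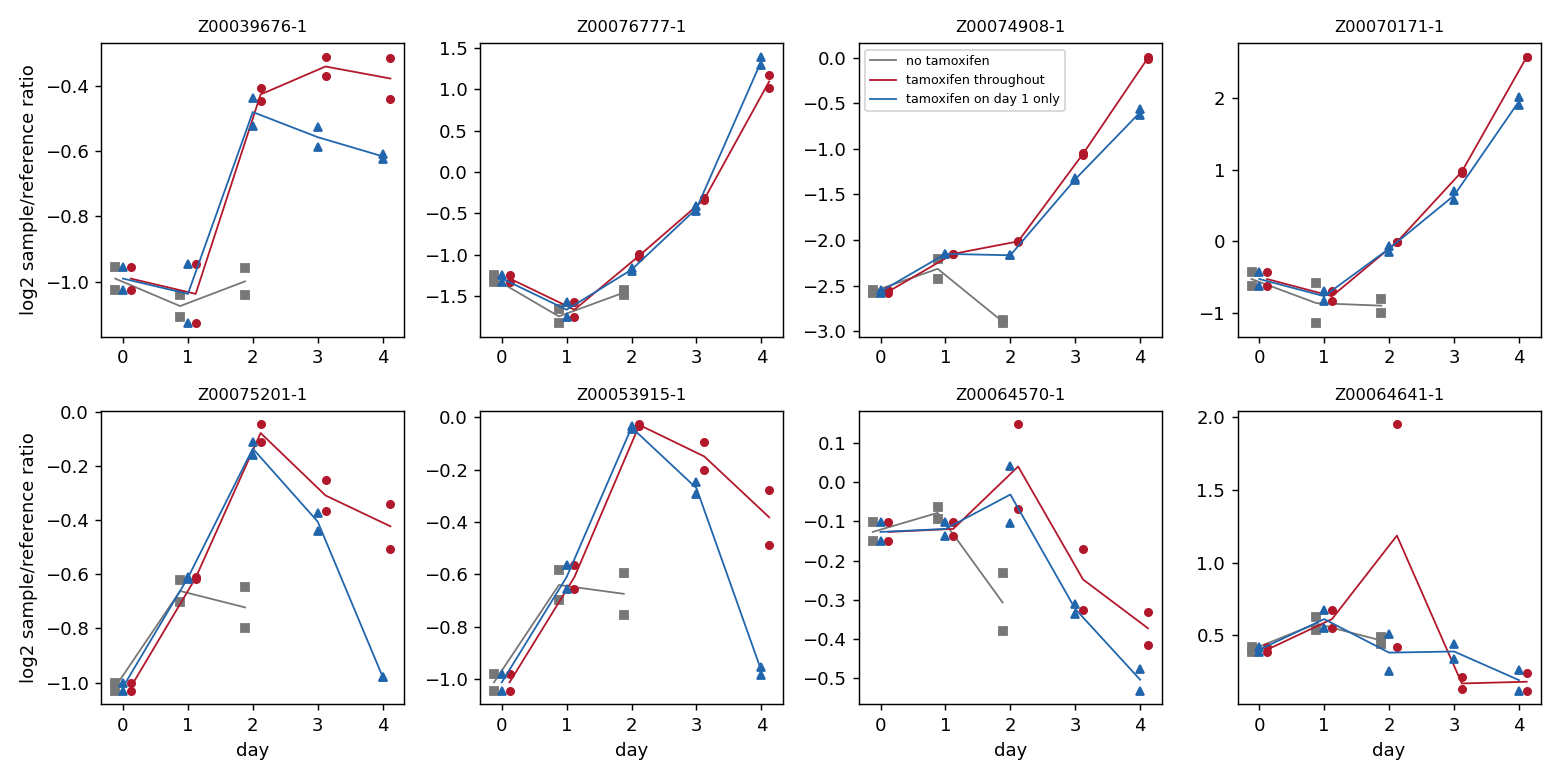
Log2 ratio of sample over reference (y axis) by day (x axis) for 8 members on every array; points are single arrays, lines join group means, grey squares are untreated cells, red circles continued tamoxifen and blue triangles tamoxifen on day 1 only. Z00075201-1 and Z00053915-1 return to the day 0 level on day 4 after withdrawal, and the day 2 mean of Z00064641-1 is set by 1 array at 1.95.

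From day 2 to day 4 after withdrawal, 42 members went up and 22 went down by limma, while 32.2% of all tested probes went up and 24.4% down. The falls of Z00053915-1 (log2 -0.93, SE 0.07) and Z00075201-1 (log2 -0.84, SE 0.07) had limma adjusted p-values of 9e-09 and 9.8e-09. In contrast Z00019741-1 read -2.57 and -2.25 in withdrawn cells on day 2 and -0.32 and -0.37 on day 4, a rise of 2.06 (SE 0.10, adjusted p = 2.8e-11 by limma), and its continued cells read -0.49 and -0.25 on day 4, overlapping the withdrawn ones. The share of members that went down was thus near that of all tested probes, and Z00053915-1 was also lower on day 4 than on day 2 under continued tamoxifen. The highest of the 10 group means fell in Day4 Tmx++++ for 49 members, in Day2 Tmx++ for 14, in Day3 Tmx+++ for 13 and in another group for the rest.

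In 5 members both arrays of some group were not well above background. No fold is given for them there, except that the day 2 rise of Z00036330-1 given above rests on such a group. These were Z00066034-1, Z00036330-1, Z00026129-1, Z00076288-1 and Z00023482-1. By contrast, 86 members were well above background on all 20 arrays, and no member had a saturated sample spot.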

How the data were processed

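Per the file headers, the deposited intensity values, on a linear scale, came from version 9.5.1.1 of Agilent Feature Extraction: mean signals, local backgrounds, and processed signals after Agilent's background subtraction and dye normalization. The deposited series matrix holds log10 values of the authors for 25030 probes, with centring unstated; it was an alternative only, and followed the log10 processed sample signal at r between 0.9935 and 0.9973. The rule used log2 ratios of processed signals minus each array's median. Levels and tests used mean signals, normexp with offset 50 (local backgrounds over 10 times the array median were replaced by it), loess within arrays, non-uniform spots left out (1 of 2 Day3 Tmx+-- values of Z00030049-1), and the 29414 probes well above background on both arrays of a group. All 101 members pass that filter because the rule requires it. limma 3.58.1 in R 4.3.3 fitted 1 mean per group over 20 arrays, with Benjamini-Hochberg adjustment at 0.05; the code was tested on simulated data. Named members are the 12 largest under the rule, the extremes among day 4 calls and among day 4 minus day 0 differences, and the neighbours of the threshold; other named members were chosen after their values were seen. Members and lists were chosen with earlier results of these data known. The results of 1 member are not reported here. Gene lists and cell markers could not be applied without gene names. Replicate numbers were not used as pairs.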

Additional observations from a re-analysis of the deposited data

Results flagged for a closer look

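For 2 members the difference between continued and withdrawn tamoxifen on day 4 exceeded that on day 3 by the limma test of the difference itself. It was 0.46 (log2, n = 2 arrays a group, adjusted p = 0.025) for Z00075201-1 and 0.47 (adjusted p = 0.041) for Z00053915-1. The levels of these probes ran side by side, and whether both measure 1 RNA is not known. Day 3 and day 4 lay on different slides scanned in different sessions, and the part of that in the result was not tested. Groups of 2 arrays are too small for a test of single outlying arrays.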

How the results depend on the processing

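Membership depended on the scale: the rule kept 44 probes on normexp and loess ratios (23 shared with the 101), 43 with median centring, 46 without background correction, 48 on the sample channel alone and 72 on the series matrix, and between 72 and 164 without 1 array, the extremes being without Day1 Tmx- arrays 2 and 1. Without the second Day2 Tmx-- array it kept 152. With local backgrounds as given, 9 members were called on day 4 between the schedules, 0 on day 3, 0 for the difference of the days and 36 on day 2 after withdrawal against day 0. The single day 3 call also became 0 on processed signals, with median centring, on the sample channel, without the filter on dim probes and with only the groups compared. The 2 calls for the difference of the days became 0 on processed signals and with only the groups compared, and 1 with median centring, on the series matrix, without the filter and with the replicate block. Leaving out 1 array gave 14 to 25 calls on day 4 between the schedules, 0 to 1 on day 3, 0 to 2 for the difference of the days, 49 to 55 on day 2 after withdrawal, 73 to 75 on day 4 under continued tamoxifen and 64 to 69 after withdrawal against day 0. With the replicate block the schedules differed for 29 members on day 4; deviations of same-numbered arrays correlated between -0.288 and 0.284, so the numbers were not treated as pairs. The cause of these changes was not tested. No result turned its direction past a threshold. Of 480 alternative values of the named probes, 434 kept their side of the threshold, 28 lost it, 7 gained it and 11 values without a call moved. Dim probes and 2 arrays a group limit all of these.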
